A study of Mus musculus with 59 samples.

Results

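The genes described here are 7 genes associated with thymocytes later than the cells sequenced: Cd4, Cd8a, Cd8b1, Arpp21, Slamf6, Themis and Itpkb. They were chosen by name, out of 45706 genes in the count tables, and were followed in all 7 groups of a cell line and all 8 groups of primary cells. The line, scid.adh, comes from a mouse thymic lymphoma, models the DN3 stage and had Tcf7 knocked out. TCF-1, the product of Tcf7, is a transcription factor that T cell precursors need. Each group of the line received a retrovirus with DL1, DL2, DL6, DL7 or DHMG TCF-1, with WT TCF-1, or an empty vector (EV), and cells were sorted 72 h after transduction, with 2 libraries per group. The labels' D forms were read as deletions of segments L1, L2, L6 and L7 and of the DNA-binding HMG box, and all line titles carry the same code, HMG-E10, which the labels do not explain. The primary cells came from bone marrow of the strain labelled Tcf7eGFP fl/fl Cre+, whose Cre driver the labels do not name. They were sorted after 7 days of co-culture with OP9-DLL1 cells, stroma that carries the Notch ligand DLL1. DN2 cells carried L1d, L7d or P45, and DN1 cells carried L1d, L7d, HMGd, P45 or EV, where P45 is the name that the line's titles give to WT TCF-1. The titles of all primary groups carry TCF1KO, read as knockout of TCF-1, and LSK, read as the bone marrow progenitors that were started from. All line groups thus shared the Tcf7 knockout, and all primary groups shared the floxed Tcf7 alleles and the TCF-1 knockout label. There were 2 replicates per primary group, each the sum of 2 or 3 libraries, and nothing in the labels ties replicates to separate cultures or animals, so p-values measure the spread between these samples only.

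As background, T cell precursors in the thymus pass through double-negative stages (DN1, DN2, DN3) that lack the CD4 and CD8 co-receptors, then through a double-positive stage that carries both. CD4 and CD8 bind MHC class II and class I beside the T cell receptor. Themis and Itpkb act in the T cell receptor signalling through which double-positive cells are selected, Arpp21 encodes an RNA-binding phosphoprotein abundant in immature thymocytes, and Slamf6 encodes a receptor of the SLAM family.

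The libraries held 3.82 to 9.48 M reads in genes in the line, and the summed primary replicates held 9.06 to 34.4 M. Tcf7 stood at 1723 to 3772 CPM (read counts normalised to library size, with TMM scaling) in the line with a construct and at 565 and 551 CPM in the EV line, where gene counts cannot separate a mutated transcript from an intact one. In primary cells the group means were 637 to 1076 CPM with a construct, against 3.33 and 4.26 CPM in DN1 EV. Il2ra, which encodes the CD25 of the sort, had 373 to 1278 CPM in DN2 replicates, against 0.425 to 3.42 CPM in DN1 replicates. Kit RNA had 261 to 308 CPM in DN2 cells, against 93.2 to 114 CPM in DN1 cells. The c-Kit gates in the protocol (low for DN2, high for DN1) run the other way, but they sort on surface protein, an unlike measure. Cd44 RNA, at 161 to 208 CPM in DN2 and 351 to 514 CPM in DN1 cells, did not go against the protocol. The line had Il2ra at 636 to 1026 CPM and Rag1 at 553 to 746 CPM, with Kit and Cd44 at no more than 0.233 and 0.182 CPM, and no Trac read. The 10 myeloid marker genes summed to 1146 to 4484 CPM in DN2 cells, against 9907 to 15388 CPM in DN1 cells, with all 10 read in both. The 8 innate lymphoid and natural killer markers summed to 794 to 1502 CPM in DN2 cells, against 40.2 to 137 CPM in DN1 cells. Gzmb alone gave 750 to 1431 CPM of the DN2 sums, while Ncr1 and Eomes were at 0.271 CPM or below there, and the part of these markers in the results below was not tested. In bulk RNA, fewer cells of a type and less RNA per cell cannot be told apart.

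Promoters from RefSeq (GRCm38.p6, 250 bases before to 50 after the annotated start, 5′ to 3′ on the gene's strand) are shown for the 3 genes on which the results turn. Arpp21 was called higher in DN2 than in DN1 cells, Themis had reads in DN2 and none in DN1 cells, and of the 5 genes that passed the filter on low counts in the line Slamf6 had the largest fold change with WT TCF-1 in the line. They lie at chr9:112233673-112233972 (minus strand, the most upstream of 9 starts listed for Arpp21), chr10:28668110-28668409 (plus strand, the upstream one of 2 overlapping entries for Themis) and chr1:171917212-171917511 (plus strand, Slamf6). Capitals mark matches on either strand to short words bound by thymic factors. For TCF and LEF factors the word was CTTTGAT, with CTTTGAA searched as its second form. For RUNX factors it was TGTGGT. For E proteins (E-box) it was CAGCTG, with CAGGTG searched as a second form, and for GATA factors it was AGATAA.
Arpp21: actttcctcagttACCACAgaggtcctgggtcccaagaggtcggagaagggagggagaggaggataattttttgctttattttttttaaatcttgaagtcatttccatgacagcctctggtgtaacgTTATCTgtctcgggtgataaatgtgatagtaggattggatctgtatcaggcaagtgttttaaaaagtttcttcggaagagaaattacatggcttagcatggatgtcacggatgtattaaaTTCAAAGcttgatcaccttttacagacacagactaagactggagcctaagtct
Themis: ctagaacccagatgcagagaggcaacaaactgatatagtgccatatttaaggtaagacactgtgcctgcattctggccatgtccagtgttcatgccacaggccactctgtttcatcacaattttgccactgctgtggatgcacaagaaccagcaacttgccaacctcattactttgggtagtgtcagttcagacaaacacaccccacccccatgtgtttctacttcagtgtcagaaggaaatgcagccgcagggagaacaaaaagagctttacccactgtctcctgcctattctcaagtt
Slamf6: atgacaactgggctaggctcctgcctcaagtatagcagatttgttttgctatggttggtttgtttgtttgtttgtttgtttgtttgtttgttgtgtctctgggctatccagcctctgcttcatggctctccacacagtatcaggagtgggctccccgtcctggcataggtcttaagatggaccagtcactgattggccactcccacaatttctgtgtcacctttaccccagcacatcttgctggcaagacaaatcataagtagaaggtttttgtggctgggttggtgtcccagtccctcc
The Arpp21 window held 1 TCF/LEF word, CTTTGAA on the strand opposite to the gene, printed as its complement and beginning 3 bases before the start, with 1 RUNX word and 1 GATA word. Of the 9 Arpp21 windows 4 held a TCF/LEF word. The Themis and Slamf6 windows held none of these words, and neither did the window of Itpkb. The Cd8a window held 1 E-box word. Of 32851 promoter windows of the same length, 8.65% held a TCF/LEF word, 16.8% a RUNX word, 32.9% an E-box word and 11.2% the GATA word. These are matches of letters, and which start the cells used was not tested.

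Of the co-receptor genes, Cd4 and Cd8a were near 0 in all cells, while Cd8b1 was read throughout the line. Cd4 (ENSMUSG00000023274, chr6:124864692-124888221, minus strand) had 6 reads over the 14 line libraries, 22 reads over the 6 DN2 replicates and 12 reads over the 10 DN1 replicates. Cd8a, which encodes the CD8 alpha chain (ENSMUSG00000053977, chr6:71373427-71379173, plus strand), had 11 reads in the line, 6 in DN2 cells and 3 in DN1 cells. Both genes failed the filter on low counts in the line and in primary cells, and no line library held more than 2 reads of Cd4 or 3 of Cd8a. At these depths a count of 0 allows up to 0.306 to 0.914 CPM in a line library, up to 0.116 to 0.196 CPM in a DN2 replicate and up to 0.0904 to 0.345 CPM in a DN1 replicate. These limits, and the intervals below, cover counting error only.

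Cd8b1, which encodes the CD8 beta chain (ENSMUSG00000053044, chr6:71322788-71337494, plus strand), ends 35.9 kb before Cd8a begins. Unlike its neighbour it was read in all 14 line libraries, 2169 times in all, and was near 0 in primary cells, with 2 reads over 6 DN2 replicates and 1 over 10 DN1 replicates. Per kb of exon, Cd8b1 stood at 14.1 ± 0.353 CPM per kb in the EV line, against 0.0656 ± 0.04 CPM per kb for Cd8a (SD, n = 2). In the EV line the level of Cd8b1 per kb was thus near that of Arpp21 (14.7 ± 0.324 CPM per kb) and below that of Themis (21.2 ± 0.523 CPM per kb). With WT, Cd8b1 was at 16.2 ± 0.237 CPM per kb and Arpp21 at 8.86 ± 0.145 CPM per kb (SD, n = 2 each). The line thus carried beta-chain RNA with almost no alpha-chain RNA.

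**Figure D1:**
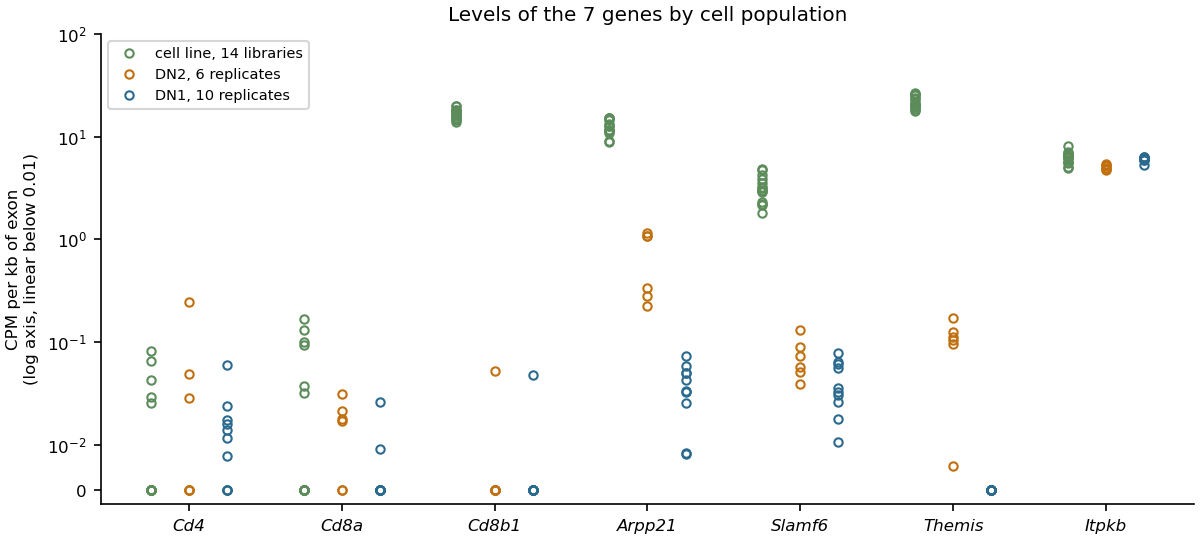
Levels of the 7 genes as CPM per kb of annotated exon in every cell line library (green), DN2 replicate (orange) and DN1 replicate (blue), on a log axis that is linear below 0.01. The line was scaled apart from the primary cells. Themis, at 0 in every DN1 replicate, and Cd8b1 are high in the line, Cd4 and Cd8a are near 0 everywhere, and Itpkb is at a like level in all 3 populations.

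In DN2 L1d cells 19 Cd4 reads were counted, 3 in replicate 1 and 16 in replicate 2, of which 13 came from 1 library. None was counted in either replicate of DN2 P45. Over the DN2 L1d group Cd4 was at 0.601 CPM (95% exact Poisson interval 0.362 to 0.939), against an upper limit of 0.0789 CPM over the DN2 P45 group. The pooled value was 9.37-fold above a floor of 3 reads over the DN2 P45 group, a ratio that leaves out the counting error of DN2 L1d. In DN2 L7d cells 3 reads were counted. Without the filter, the quasi-likelihood test of edgeR, adjusted by Benjamini-Hochberg as in all p-values of edgeR given here, gave Cd4 an adjusted p of 0.0135 for DN2 L1d against P45. It gave 0.275 for DN2 L1d against L7d and 0.087 for DN2 L1d against DN1 L1d. For the difference between the L1d and P45 changes from DN1 to DN2 it gave 0.078. In that fit 2269 genes were called for DN2 L1d against P45, and most of the Cd4 reads came from 1 library. The 10 dendritic cell markers, a lineage in which some cells carry Cd4, summed to 181 to 209 CPM in DN2 L1d, against 162 to 165 CPM in DN2 P45. Of these, Zbtb46 was at 8.48 to 8.61 CPM in DN2 L1d and 1.13 to 1.35 CPM in DN2 P45, H2-Aa at 27.8 to 31.7 CPM in DN2 L1d and 11.1 to 11.5 CPM in DN2 P45, and Batf3 at 2.28 to 3.46 CPM in DN2 L1d and 1.17 to 1.73 CPM in DN2 P45. Xcr1, Clec9a and Cd209a were at 0 in DN2 L1d, and Cd209a alone was at 0 in DN2 P45. Zbtb46, H2-Aa and Batf3 held only a minor part of these sums. Siglech, Itgax, Bst2 and H2-Ab1, also on the list, are not given singly, so only the sums describe the whole list. The part of these markers in the Cd4 result was not tested. Cd8a had 2 reads in DN2 L1d, 4 in DN2 L7d and 0 in DN2 P45.

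In the line, Cd8b1 had 25.9 and 26.1 CPM with DL1, 29.6 and 29.6 CPM with DL2, 22.8 and 26.9 CPM with DL6, 26.5 and 23.5 CPM with DL7, 22 and 27.1 CPM with DHMG, 23.8 and 24.3 CPM with WT, and 20.6 and 21.3 CPM with EV. EV was the lowest group and DL2 the highest, neither overlapped its neighbour, and the 5 groups between them followed each other with overlapping replicates. The only call was DL2 against EV, at a log2 fold change of 0.50 ± 0.14 (SE) and an adjusted p of 0.0267 by edgeR. That call was lost with each of the 4 libraries of DL2 and EV left out in turn (adjusted p 0.112 to 0.205) and with DESeq2 (adjusted p 0.126).

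Among the other 4 genes, Arpp21 fell and Slamf6 rose with WT TCF-1 in the line, and with most deletions their levels lay between those of WT and EV. Of 5 genes of the group that passed the filter, 3 were called for WT against EV, where 24.9% of 10939 genes were called. With DL1, 3 of 5 were called, against 11% of all genes, and with DL2 it was 4 of 5, against 5.06%. With DL6 and DL7, 1 and 2 of 5 were called, against 1.5% and 2.78% of all genes. With DHMG 2 of 5 were called, against 17.1%. These comparisons share the EV libraries, and those against WT below share the WT libraries.

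Arpp21 (ENSMUSG00000032503, chr9:112065091-112235938, minus strand) had 202 and 198 CPM with DL1, 194 and 188 CPM with DL2, 221 and 230 CPM with DL6, 261 and 265 CPM with DL7, 222 and 203 CPM with DHMG, 156 and 153 CPM with WT, and 261 and 253 CPM with EV. WT was lowest and stood apart from every other group, DL7 overlapped EV at the top, and DL6 overlapped DHMG. Arpp21 was 1.66-fold lower with WT than with EV, a log2 fold change of -0.73 ± 0.06 (SE) with an adjusted p of 2.27e-13 by edgeR. Arpp21 was also lower than in EV with DL1 (log2 fold change -0.36, adjusted p 1.65e-05), DL2 (-0.43, 1.74e-06) and DHMG (-0.27, 0.00105), but was not called with DL6 (adjusted p 0.101) or DL7 (0.87). The DHMG call was lost with 1 of 4 libraries left out (adjusted p 0.0694). Against WT, Arpp21 was higher with all 5 deletions, from 1.24-fold with DL2 (adjusted p 0.000445 by edgeR) to 1.70-fold with DL7 (log2 fold change 0.76 ± 0.06, adjusted p 6.53e-14), and these calls held with every library of the compared groups left out in turn.

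The precursor of miR-128, Mir128-2, lies on the same strand within Arpp21, in none of its annotated exons. Its mature 3p form, with the seed (bases 2 to 8) in capitals, sits at chr9:112118644-112118664 in RefSeq (GRCm38.p6, minus strand).
mmu-miR-128-3p: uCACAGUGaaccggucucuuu
The libraries were not made for small RNA, and Mir128-2 had 27 reads over the 14 line libraries and 1 over all primary replicates, where spliced-out host RNA and precursor RNA cannot be told apart.

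Slamf6 (ENSMUSG00000015314, chr1:171917515-171953170, plus strand) had 31.2 and 32 CPM with DL1, 35.2 and 38.3 CPM with DL2, 34.2 and 32.9 CPM with DL6, 46.0 and 41.7 CPM with DL7, 19.3 and 23.5 CPM with DHMG, 51.1 and 51.9 CPM with WT, and 25.2 and 23.7 CPM with EV. No neighbouring groups in this order overlapped: WT was highest, then DL7, DL2, DL6, DL1, EV and DHMG. Slamf6 was 2.10-fold higher with WT than with EV (log2 fold change 1.07 ± 0.11, adjusted p 5.58e-10 by edgeR), and 1.80-fold higher with DL7 (0.85 ± 0.12, 2.11e-06). It was 1.49-fold higher with DL2 (adjusted p 0.00218 by edgeR), 1.37-fold with DL6 (0.048) and 1.29-fold with DL1 (0.0425), while DHMG was not called (log2 fold change -0.20, 0.397). The DL1 and DL6 calls were lost with each of the 4 libraries left out in turn (adjusted p 0.0927 to 0.216 for DL1 and 0.215 to 0.367 for DL6) and with DESeq2 (adjusted p 0.123 and 0.202).

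Against WT, Slamf6 was lower with DL1 (1.63-fold, adjusted p 5.55e-06 by edgeR), DL2 (1.41-fold, 0.00165), DL6 (1.53-fold, 4.5e-05) and DHMG (2.42-fold, log2 fold change -1.27 ± 0.13, 4.73e-10), and was not called with DL7 (-0.22 ± 0.10, 0.0957). The DL2 call was lost with 1 of 4 libraries left out (adjusted p 0.0731). Across the 5 deletions, DL7 thus stood next to WT for Slamf6 and next to EV for Arpp21.

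**Figure D2:**
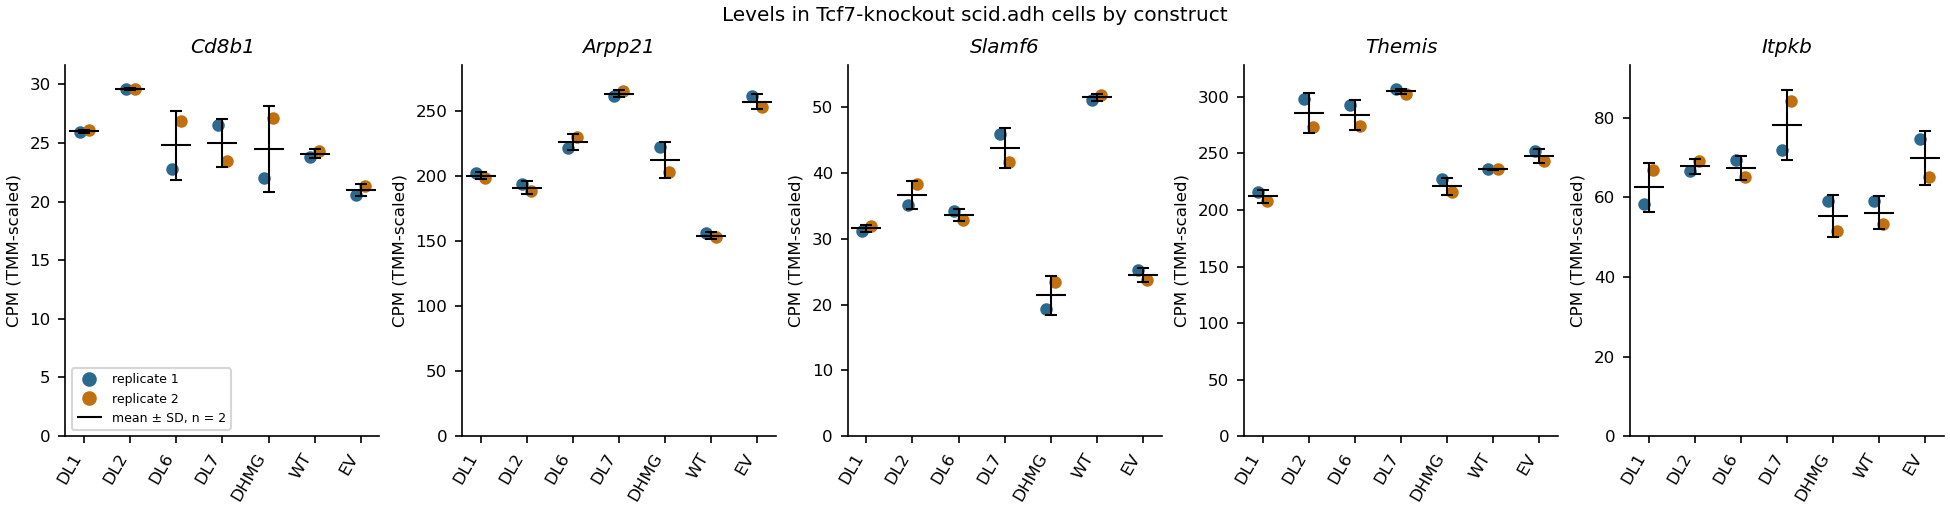
CPM of 5 genes in each cell line library by construct, with the mean and SD of 2 replicates as black bars and all axes starting at 0. Arpp21 is lowest with WT (156 and 153 CPM) and Slamf6 highest with WT (51.1 and 51.9 CPM), and DL7 is close to EV for Arpp21 and close to WT for Slamf6.

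Themis and Itpkb, the genes of receptor signalling, moved less. Themis (ENSMUSG00000049109, chr10:28668360-28883818, plus strand), which encodes an adaptor that works with the phosphatase SHP-1, had 216 and 208 CPM with DL1, 298 and 273 CPM with DL2, 293 and 274 CPM with DL6, 307 and 303 CPM with DL7, 227 and 216 CPM with DHMG, 236 and 236 CPM with WT, and 252 and 243 CPM with EV. DL7, DL2 and DL6 were the highest groups, with DL2 and DL6 overlapping, then came EV and WT, and DHMG and DL1 overlapped at the bottom. Themis was called higher than EV with DL7 (1.23-fold, log2 fold change 0.30 ± 0.06, adjusted p 0.00058 by edgeR) and DL2 (1.16-fold, 0.0221) and lower with DL1 (1.16-fold lower, 0.00922). WT against EV gave a log2 fold change of -0.07 and an adjusted p of 0.413. Against WT, Themis was called higher with DL2 (1.22-fold, adjusted p 0.000625 by edgeR), DL6 (1.20-fold, 0.000598) and DL7 (1.29-fold, 1.54e-06). The DL2 call against EV was lost with 3 of 4 libraries left out (adjusted p up to 0.373) and with DESeq2 (0.0573), and 1 of 4 lost the calls of DL1 (0.151) and DL7 (0.0515) against EV and of DL2 against WT (0.0772).

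Without scaling factors the median gene shifted by -0.267 (log2) in DHMG against EV and by -0.278 in DHMG against WT, and Themis was then called lower with DHMG, at log2 fold changes of -0.42 and -0.37, where the scaled values were -0.16 and -0.09. Slamf6 was called lower with DHMG than with EV and with DL7 than with WT in that setting too, at -0.47 and -0.30, and Itpkb lower with DHMG than with WT, at -0.30.

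Itpkb (ENSMUSG00000038855, chr1:180330485-180424802, plus strand) encodes a kinase that turns the second messenger IP3 into IP4. It had 58.2 and 66.8 CPM with DL1, 66.5 and 69.1 CPM with DL2, 69.4 and 65.2 CPM with DL6, 72.0 and 84.3 CPM with DL7, 59.1 and 51.5 CPM with DHMG, 59.0 and 53.2 CPM with WT, and 74.7 and 65.0 CPM with EV. In order of its mean, every group overlapped the next, from DL7 at the top to WT and DHMG at the bottom. Itpkb was called lower than EV with WT (1.24-fold, log2 fold change -0.31 ± 0.10, adjusted p 0.0125 by edgeR) and DHMG (1.26-fold, -0.34 ± 0.11, 0.0249), and each call was lost with 2 of 4 libraries left out (adjusted p up to 0.289 and 0.305). With DL7 it was 1.37-fold higher than with WT (log2 fold change 0.46 ± 0.09, adjusted p 0.000169 by edgeR), a call that held with each library left out.

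Against WT, 2 of 5 genes of the group were called with DL1, where 10.8% of all genes were, and 3 of 5 with each of DL2, DL6 and DL7, where 11.4%, 21.5% and 30.5% of all genes were. With DHMG 2 of 5 were called, against 14.8%. Cd8b1 was called in none of them. In DL7 all 3 calls (Arpp21, Themis and Itpkb) were higher than in WT, whereas in DL2 and DL6 Arpp21 and Themis were higher and Slamf6 lower.

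**Figure D3:**
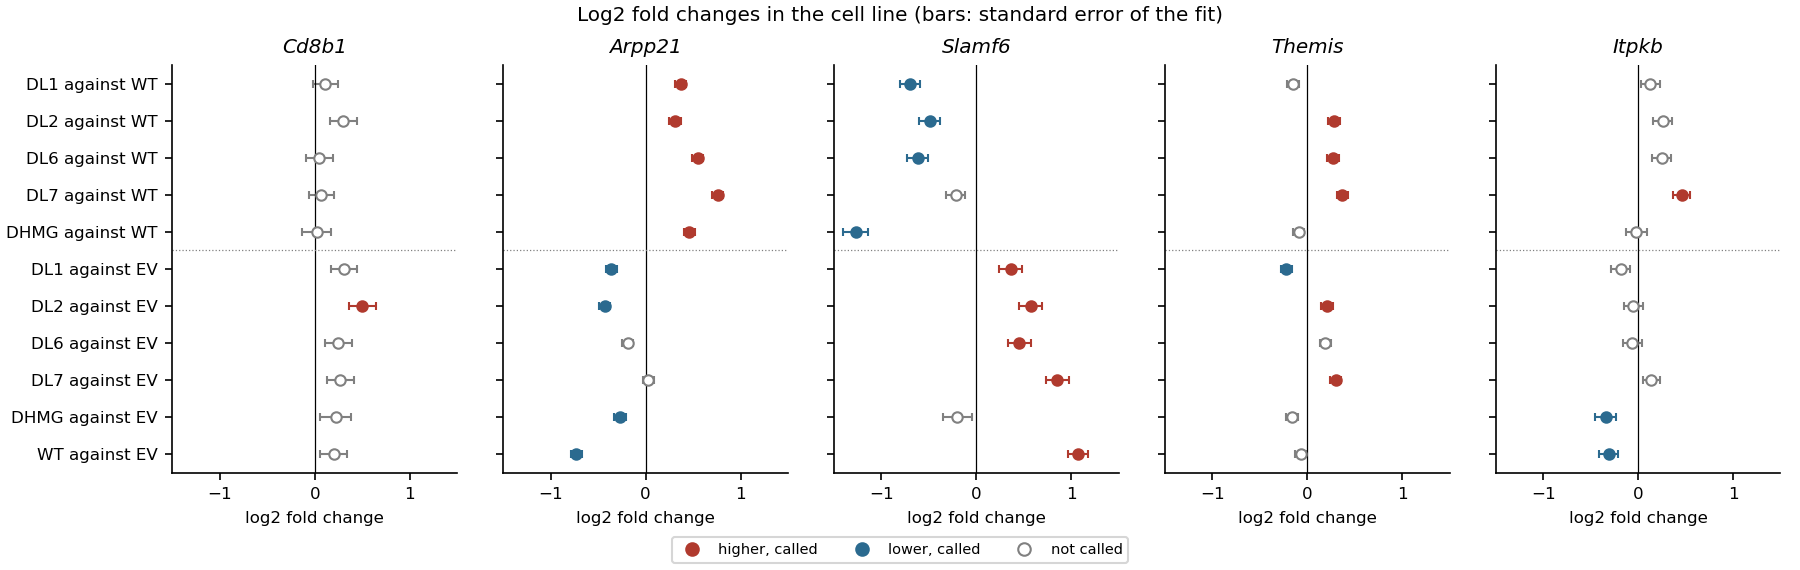
Log2 fold changes with the standard errors of the fit for 5 genes in 11 comparisons of the cell line, with comparisons against WT above the dotted line and those against EV below it. Filled points were called by edgeR's quasi-likelihood test at an adjusted p under 0.05 (red higher, blue lower). Arpp21 is higher than WT with all 5 deletions, and Slamf6 is lower than WT with all of them but DL7, whose point is open.

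Genes of the same pathways, taken from lists made for these 7 genes, are given as counts. For WT against EV, where 1348 of 10939 genes rose and 1374 fell, 0 of 15 measured regulators of the co-receptors rose and 11 fell, with a median log2 fold change of -0.28 against 0.01 over all genes. Those with the lowest p were Tcf12 (E protein, log2 fold change -0.56), Myb (-0.49) and Bcl11b (-0.49), a T lineage factor. Of 18 partners of Themis and Itpkb in receptor signalling, 2 rose and 9 fell (median -0.20), led by Itpr2, an IP3 receptor, at 351 ± 1.49 CPM with WT and 534 ± 13.8 CPM with EV (SD, n = 2 each).

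Of the 16 other double-positive stage genes measured in the line, 2 rose and 6 fell with WT against EV, with a median log2 fold change of -0.19. Cd28, a co-stimulatory receptor, fell to 13.4 ± 3.15 CPM with WT, against 29.4 ± 0.559 CPM with EV, and Cd2, an adhesion receptor, was at 71.8 ± 3.46 CPM with WT and 53.6 ± 5.28 CPM with EV (SD, n = 2 each). None of the 5 measured SLAM receptors and adaptors other than Slamf6 was called for WT against EV or with DL1, DL2, DL6 or DL7 against WT. The shares of all genes called were 24.9%, 10.8%, 11.4%, 21.5% and 30.5%, so 0 calls among 5 genes say little. With DHMG against WT 1 was called, Slamf1, at 15.5 ± 0.881 CPM with DHMG and 9.13 ± 0.456 CPM with WT (1.69-fold higher, adjusted p 0.014 by edgeR). Of 12 ARPP and calcium-calmodulin genes, 2 rose and 3 fell with WT against EV (median -0.00), with Camk4 and Ppp3ca, a kinase and a phosphatase of calcium signalling, among those that fell. For DL7 against WT, where 30.5% of all genes were called, 1690 higher and 1641 lower, 12 of the 15 co-receptor regulators rose and none fell (median 0.28). Of 18 receptor signalling partners 7 rose and 2 fell, and Itpr2, Itpr3 and Itpr1, which encode the 3 IP3 receptors, were among those that rose.

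In primary cells Arpp21, Themis, Slamf6 and Itpkb passed the filter, and Cd4, Cd8a and Cd8b1 did not. Themis passed only through DN2 cells, so that it had to differ between the stages, and it is not counted among the calls between them. No comparison within DN1 called any of the 4, by edgeR or by DESeq2. Against DN1 EV the shares of 15010 genes called were 7.46% in the P45 group, 0.473% in L1d cells, 5% in L7d cells and 0.00666% in HMGd cells. Against DN1 P45 they were 1.33% for L1d, 0.00666% for L7d and 4.88% for HMGd, and between L1d and L7d 0.06%. Over these 8 comparisons 1 of the unadjusted p-values was under 0.05, that of Itpkb between DN1 L1d and L7d (0.0365, adjusted p 0.644 by edgeR). It was called with each T library taken as a replicate (adjusted p 0.0447 by edgeR). That setting counts libraries of the same replicate as separate, and it called 717 genes for this comparison, against 9 in the main fit.

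The levels behind this were low for 3 of the 4 genes. Arpp21 in DN1 cells was at 0.575 and 1.28 CPM with L1d, 0.447 and 0.867 CPM with L7d, 0.142 and 0.871 CPM with HMGd, 0.577 and 1.02 CPM with P45, and 0.141 and 0.752 CPM with EV, and all 5 groups overlapped. Slamf6 in DN1 cells lay between 0.115 and 0.838 CPM, with 95 reads over 10 replicates. Themis had no read in any DN1 replicate, which allows up to 0.0489 to 0.123 CPM per group. At this depth a difference in these 3 genes between DN1 groups was detectable only if large. Itpkb, at 55.2 to 66.8 CPM in DN1 cells, had 12682 reads over 10 replicates. Its log2 fold change against EV was 0.05 ± 0.07 for L1d, -0.12 ± 0.07 for L7d, -0.01 ± 0.07 for HMGd and -0.05 ± 0.07 for P45.

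From DN1 to DN2, Arpp21 rose with each of the 3 constructs present in both sorts, Slamf6 rose with P45, and Itpkb fell with P45 and L1d. Themis was read only in DN2 cells. With P45 all 3 genes other than Themis were called, where 43.3% of all genes were. With L1d 2 of 3 were called, against 39.8%, and with L7d 1 of 3, against 41.3%.

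Arpp21 had 18.8 and 18.8 CPM in DN2 P45 cells, against 0.577 and 1.02 CPM in DN1 P45 cells, a 22.4-fold rise (log2 fold change 4.48 ± 0.57, adjusted p 1.28e-05 by edgeR). With L7d it had 19.9 and 5.89 CPM in DN2 cells, against 0.447 and 0.867 CPM in DN1 cells (19.3-fold, 4.27 ± 0.58, adjusted p 2.73e-05 by edgeR). With L1d it had 3.91 and 4.86 CPM in DN2 cells, against 0.575 and 1.28 CPM in DN1 cells (4.26-fold, 2.09 ± 0.67, adjusted p 0.021 by edgeR). In none of the 3 did the stages overlap, and the rise with L1d was the smallest. The calls with P45 and L7d held with each of 4 replicates left out, whereas that with L1d was lost with 3 of 4 (adjusted p up to 0.0977). The test of the difference between the L1d and P45 rises gave a log2 value of -2.39 ± 0.94 and an adjusted p of 0.249 by edgeR (unadjusted p 0.0224), with 1.58% of all genes called. It was called in a fit of only the groups compared (adjusted p 0.0292), with T libraries as replicates (0.0147) and without the filter (6.4e-06), and in 0 of 8 fits with 1 replicate left out (adjusted p 0.285 to 0.772). Those settings also called more genes of any kind for this test. The counts were 340 with only the groups compared, 1721 with T libraries as replicates and 988 without the filter, against 237 in the main fit. For L7d the same test gave -0.21 ± 0.86 (adjusted p 1), in a comparison in which 0% of genes were called.

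Within DN2, Arpp21 was 4.28-fold lower with L1d than with P45 (log2 fold change -2.10 ± 0.49, adjusted p 0.0131 by edgeR). It was the only 1 of 4 genes called there, where 10.9% of all genes were. The adjusted p was 0.0825 with DESeq2, and with 1 replicate left out it ran from 0.0428 to 0.0679, above the threshold without DN2 L1d replicate 2 (0.057) and without DN2 P45 replicate 1 (0.0679). The 4 single libraries of DN2 L1d lay between 3.41 and 6.62 CPM, against 17.2 to 20.8 CPM in the 6 of DN2 P45.

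DN2 L7d replicates stood apart from each other. The 3 libraries of replicate 1 had 18.5, 18.7 and 22.5 CPM of Arpp21, of which 2 lay within the range of the DN2 P45 libraries and 1 above it, and the 3 of replicate 2 had 5.73 to 6.20 CPM, within the range of the DN2 L1d libraries. In the same replicates Il2ra was at 1178 and 687 CPM, Trdc, the delta receptor constant gene, at 16.5 and 7.05 CPM, and Rag1 at 1.63 and 0.504 CPM. Each was lower in replicate 2, as in DN2 L1d, where Il2ra had 448 and 373 CPM, against 1278 and 1183 CPM in DN2 P45. Themis did not follow, at 1.29 and 1.47 CPM in replicates 1 and 2.

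None of the 4 genes was called for DN2 L7d against P45 or for DN2 L1d against L7d, where 0.293% and 5.82% of all genes were. For Arpp21 in L1d against L7d the adjusted p was 0.0898 by edgeR. It was 0.00283 without DN2 L7d replicate 2 and 0.816 without replicate 1. In DN2 L1d the 10 myeloid markers summed to 3799 to 4484 CPM, against 1146 to 1975 CPM in DN2 L7d and 1698 to 1757 CPM in DN2 P45, and the 5 DN2 markers to 374 to 450 CPM, against 694 to 1206 CPM in L7d and 1206 to 1322 CPM in P45. Nearly all of the DN2 marker sum was Il2ra, a gene of the sort, at 373 to 448 CPM in L1d, against 687 to 1178 CPM in L7d and 1183 to 1278 CPM in P45. Ptcra, Cd3e and Cd3g were at 0 in DN2 L1d. The part of both lists in the Arpp21 result was not tested.

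**Figure D4:**
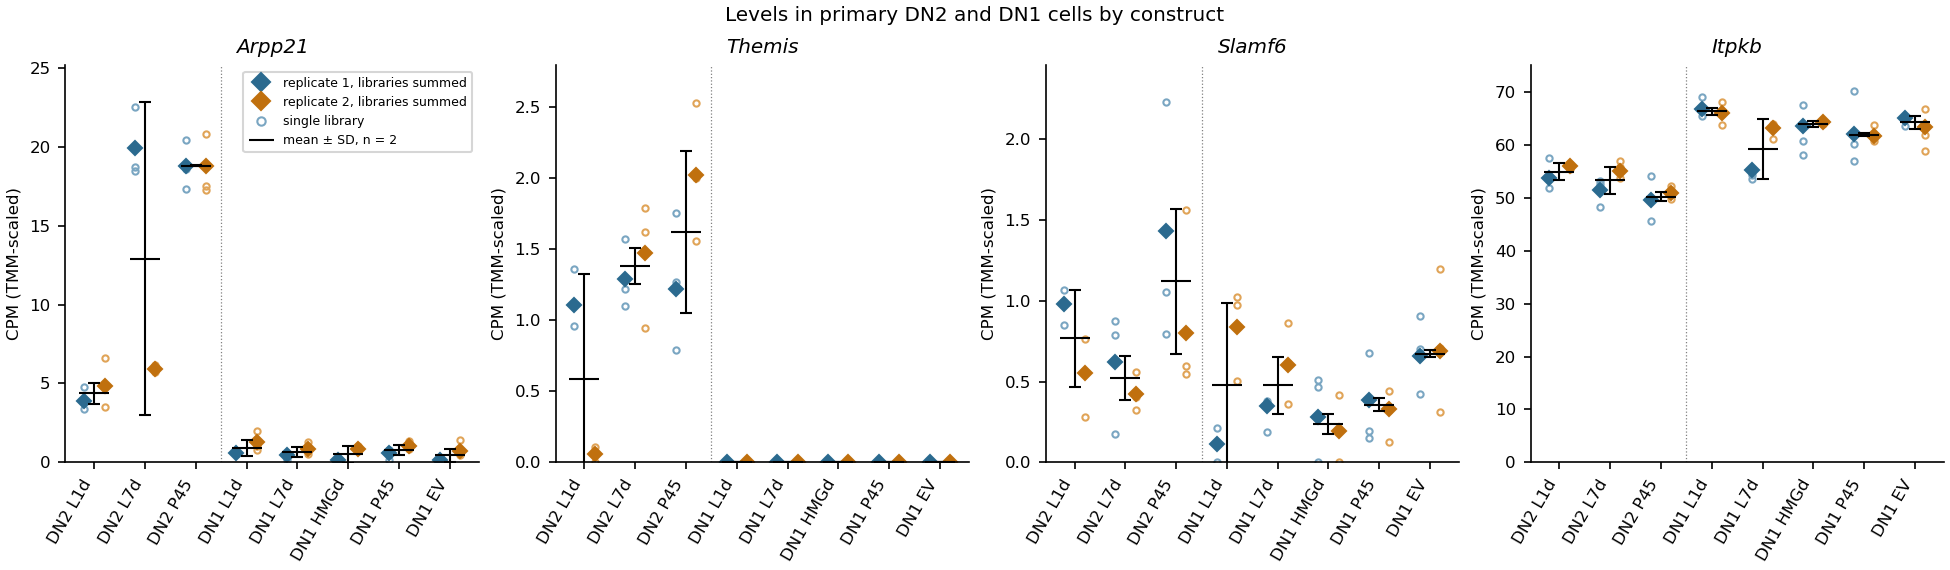
CPM of 4 genes in primary cells, with DN2 groups left of the dotted line and DN1 groups right of it. Diamonds are the 2 replicates of a group, open circles their single libraries, and black bars the mean and SD of the 2 replicates. Arpp21 is low in DN2 L1d and in replicate 2 of DN2 L7d, Themis is at 0 in DN1, and Itpkb is lower in DN2 than in DN1 by a small margin.

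Themis was counted 18 times in DN2 L1d, 61 times in DN2 L7d and 76 times in DN2 P45, and never in DN1 cells. In CPM this was 1.11 and 0.0615 in DN2 L1d, 1.29 and 1.47 in DN2 L7d, and 1.22 and 2.02 in DN2 P45. The pooled DN2 value of Themis was 28.6-fold with L7d and 29.3-fold with P45 above a floor of 3 reads over the DN1 group with the same construct. These ratios leave out the counting error of the DN2 value. In DN2 L1d, 17 of the 18 reads came from replicate 1, and replicate 2 lay below the floor of DN1 L1d (0.113 CPM), so no ratio is given for that construct. These values describe the stages and carry no test, since Themis passed the filter through DN2 cells alone. L1d against P45 in DN2 was not called (adjusted p 0.298 by edgeR). With T libraries as replicates it was called (adjusted p 0.0355 by edgeR). That setting counts libraries of the same replicate as separate, and it called 3543 genes there, against 1630 in the main fit. The limit set by the filter bears on this comparison too, since Themis was near 0 in replicate 2 of DN2 L1d. Per kb of exon, Themis in DN2 P45 cells was at 0.139 ± 0.0488 CPM per kb, against 21.2 ± 0.523 CPM per kb in the EV line (SD, n = 2 each), in separately scaled data.

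Slamf6 had 1.43 and 0.801 CPM in DN2 P45 cells, against 0.385 and 0.331 CPM in DN1 P45 cells (3.11-fold, log2 fold change 1.64 ± 0.57, adjusted p 0.0312 by edgeR), on 33 and 19 reads against 8 and 11. The call was lost with 3 of 4 replicates left out (adjusted p up to 0.249) and with DESeq2 (0.0783). With L1d it had 0.978 and 0.554 CPM in DN2 cells, against 0.115 and 0.838 CPM in DN1 cells, and with L7d 0.619 and 0.426 CPM in DN2 cells, against 0.351 and 0.6 CPM in DN1 cells. Both pairs of groups overlapped and neither was called (adjusted p 0.616 and 0.903 by edgeR). Slamf6 in primary cells thus stayed at 1.43 CPM or below in all 8 groups, with the highest mean in DN2 P45.

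Itpkb was called lower in DN2 than in DN1 with P45 and L1d, and not with L7d. It had 49.5 and 50.8 CPM in DN2 P45, against 62.1 and 61.7 CPM in DN1 P45 (1.23-fold lower, log2 fold change -0.30 ± 0.07, adjusted p 0.0025 by edgeR). With L1d it had 53.7 and 56.0 CPM in DN2, against 66.8 and 65.9 CPM in DN1 (1.21-fold lower, adjusted p 0.00793 by edgeR), and with L7d 51.5 and 55.1 CPM in DN2, against 55.2 and 63.1 CPM in DN1 (not called, adjusted p 0.102). None of these pairs overlapped. Without scaling factors the median gene shifted by 0.132 to 0.218 (log2) in these 3 comparisons, no Itpkb difference was called, and that with L7d turned to 0.04. The P45 call held with each replicate left out, and the L1d call was lost with 3 of 4 (adjusted p up to 0.0741). Per kb, Itpkb was the only 1 of the 7 genes above 1 CPM per kb in all of the EV line (6.67 ± 0.65 CPM per kb), DN2 P45 (4.80 ± 0.0889) and DN1 P45 cells (5.92 ± 0.0268).

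Genes of the same lists are given for DN2 P45 against DN1 P45, where 43.3% of all genes were called. Of the co-receptor regulators 11 of 16 rose and 2 fell, with a median log2 fold change of 0.69 against -0.02 over all genes. Tox, a factor needed for CD4 T cells, reached 18.6 ± 1.10 CPM in DN2 P45, against 0.587 ± 0.191 CPM in DN1 P45, and Zbtb7b, the CD4 lineage factor ThPOK, was at 27.3 ± 0.0226 CPM in DN2 P45 and 85.8 ± 0.793 CPM in DN1 P45 (SD, n = 2 each). Of 15 other double-positive stage genes 9 rose and 2 fell (median 1.23), with Cd27, a co-stimulatory receptor, at 40.2 ± 0.484 CPM in DN2 P45 and 6.86 ± 0.579 CPM in DN1 P45. Like Themis, some list genes passed the filter only through DN2 cells and could not have been lower there. Rag1 was one, with 0 reads in each DN1 P45 replicate, against 74 and 53 in DN2 P45. How many of the genes that rose were of this kind was not counted. Of 19 receptor signalling partners 8 rose and 4 fell (median 0.04), and the kinase Lck was at 69.1 ± 1.21 CPM in DN2 P45 and 2.46 ± 0.461 CPM in DN1 P45. Of 9 SLAM genes 1 rose and 2 fell, and of 12 ARPP and calcium-calmodulin genes 2 rose and 4 fell, shares called that lie near that of all genes.

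For DN2 L1d against P45, where 10.9% of all genes were called, 1209 higher and 421 lower, none of the 16 co-receptor regulators rose and 6 fell (median log2 fold change -0.22), none of the 15 other double-positive stage genes rose and 7 fell (median -1.06), and none of the 19 signalling partners rose and 3 fell (median -0.05), where the median over all genes was 0.00. Among the 7 double-positive stage genes that fell, Rag1 and Cd3g were at 0.0652 ± 0.0922 and 0 CPM in DN2 L1d. They passed the filter through other groups, so they could not have been called higher in DN2 L1d. How many other list genes were of this kind was not counted. Gata3, a T lineage factor, was at 15 ± 0.723 CPM in DN2 L1d and 43.9 ± 6.86 CPM in DN2 P45. Lck was at 19.4 ± 1.30 CPM in DN2 L1d and 69.1 ± 1.21 CPM in DN2 P45 (SD, n = 2 each). Cd84 and Slamf7, receptors of the SLAM family, rose in DN2 L1d, at 47.3 ± 13.4 and 12.8 ± 6.9 CPM in DN2 L1d, against 27.7 ± 1.12 and 2.33 ± 0.464 CPM in DN2 P45. For DN2 L7d against P45 no gene of any of the 5 lists was called. Only 0.293% of all genes were called there, a share at which lists of this size would mostly hold none.

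As a description of likeness, the genes whose log2 CPM followed Arpp21 most closely over the 14 line libraries were Rhoh, Cdh23 and Dnm3 (Pearson r 0.967, 0.966 and 0.96), and over the 16 primary replicates Prkca, Ralgps2 and Cdca7l (0.977, 0.972 and 0.968). Those nearest Slamf6 in the line were Arsi, Fmnl3 and Sgsh (0.963, 0.928 and 0.924), and those nearest Themis in primary cells were Olfr524, Trdc and Tcrg-C4 (0.978, 0.977 and 0.977). Themis in the line was followed by P4ha1, Slc9a5 and Cep152 (0.96, 0.944 and 0.942). Among the genes of the group themselves, r in primary cells was 0.882 between Arpp21 and Themis and -0.866 between Themis and Itpkb. In the line it was -0.436 between Arpp21 and Slamf6 and 0.698 between Themis and Itpkb. The points share constructs, stages and libraries, and in primary cells the split between DN2 and DN1 cells separates most values. Themis rests on 155 reads there.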

How the data were processed

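The Takara kit SMARTer Stranded Total RNA-Seq v2 gave strand-specific libraries, per the labels' protocols. Per the submitters' processing notes, the tools were STAR 2.5.0a and HTSeq 0.6.1 on GRCm38. The deposited values are the authors' read counts per gene, without normalization, and the reverse-strand column was used, since the forward column held 4.88% to 8.56% of stranded reads. Symbols and positions came from GENCODE M21 (45143 of 45706 genes matched). Of 59 samples 58 were used, because 1 DN1 L1d table stops early, and libraries that share a B number in the labels were summed. The meaning of the B and T numbers is not stated.

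Counts were filtered with filterByExpr, scaled by TMM and tested with edgeR 4.0.16 (R 4.3.3) in a fit of 14 line libraries and a fit of 16 primary replicates, with a threshold of 0.05 after Benjamini-Hochberg adjustment over 10939 and 15010 genes and a prior count of 0.125. The fits were also run on simulated data with the same spread between replicates set for every gene. That run does not vouch for calls on genes with few reads. Alternatives were DESeq2 1.42.0, other scalings, no filter, unstranded counts, a replicate block, the compared groups alone, T libraries as replicates and each replicate left out. Genes named beside the 7 were up to 3 per list with the lowest p among those called, the most alike by Pearson r (prior count 2), and markers for the labels. The 7 genes and all lists were chosen with earlier results of these data known. No DN2 group with EV or HMGd was analysed here.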

Additional observations from a re-analysis of the deposited data

Results flagged for a closer look

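Over the single libraries of each primary group, 27 combinations of gene and group with at least 10 reads were checked for a library far from the others, and chance flags about 1 in 20 of them. The check found 1. In DN1 EV, library 3 of replicate 2 had 1.43 CPM of Arpp21 on 6 reads, where the other 5 libraries lay between 0 and 0.532 CPM. The gap was 0.629 of the whole range, just above the critical value of 0.625.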

How the results depend on the processing

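Of 38 calls among the 7 genes, 22 held with every replicate of the compared groups left out in turn. Both totals include calls of Themis between DN1 and DN2, whose direction the filter had set. Those with P45 and L7d are among the calls that held, which says nothing of their strength, and that with L1d is not. Calls against EV in the line numbered 15, with 9 under DESeq2 and 8 to 15 with 1 replicate left out (8 without EV replicate 1 and 10 without EV replicate 2). Calls against WT numbered 13 (11 to 14). Calls from DN1 to DN2 numbered 9, of which 3 are of Themis and were bound to have their direction, with 5 under DESeq2 and 6 to 9 with 1 replicate left out. Within DN1 there were 0, and 1 with T libraries as replicates. Within DN2 there was 1, with 0 under DESeq2, 3 without the filter, 3 with T libraries as replicates and 0 to 4 with 1 replicate left out (4 without DN2 L1d replicate 1). For the difference between the stages' changes there were 0, and 1 each without the filter, in the compared groups alone and with T libraries as replicates. DESeq2 gave no adjusted p for 2 gene and comparison pairs. Of values with a sign, Itpkb from DN1 to DN2 with L7d turned to 0.037 without scaling factors, and Itpkb with DHMG against WT ranged from -0.138 to 0.07 with 1 replicate left out. The labels do not say whether replicate numbers pair samples across groups. Over 21 pairs of line groups the correlation of deviations was -0.038 to 0.035, with 0 pairs over 0.1. Over 28 pairs of primary groups it was -0.033 to 0.255 (median 0.084), with 11 pairs over 0.1, so some primary groups shared a shift between replicates. Among the 7 genes a replicate block changed 1 call, that of Slamf6 with DL6 against EV (adjusted p 0.0518 by edgeR). Over all genes it raised the calls for DN2 L1d against P45 from 1630 to 1999. With 2 replicates and few reads of Cd4, Cd8a, Cd8b1, Slamf6 and Themis in primary cells, depth limits what could be called there. The causes of these changes were not tested.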
